A study of Mus musculus with 5 samples.

Results

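Hox genes encode homeodomain transcription factors that give cells a position along the head-to-tail axis and along the limbs. The mouse genome carries them in 4 clusters, Hoxa, Hoxb, Hoxc and Hoxd, and genes at the same place in different clusters form paralogue groups numbered from 1 to 13. Low numbers act toward the head and high numbers toward the tail and the limb tips. Fibroblasts and fat cell precursors keep a pattern of active and silent Hox genes that reflects where in the body they arose, and Polycomb proteins hold the silent ones shut. 3T3-L1 is a fibroblast line from mouse embryo that turns into fat cells under hormones, so its Hox pattern is that of 1 line and not of a fat depot.

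The members were all probe sets whose single gene symbol is that of a Hox gene of clusters a to d. They numbered 33 genes, each with 1 probe set, among 22206 probe sets and 19505 named genes in the whole table. The RefSeq gene table lists 39 such genes, and the other 6 are not analysed here. The members comprise 8 genes of Hoxa, 9 of Hoxb, 9 of Hoxc and 7 of Hoxd.

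Expression was measured on 5 mouse Clariom S arrays, each with RNA of 1 sample of mature 3T3-L1 adipocytes. All 5 samples were differentiated with IBMX (0.5 mM), dexamethasone (1 µM) and insulin (5 µg/mL) for 4 days and with insulin alone for another 2 days, followed by 1 day without added hormones, and spent a final 72 h in RPMI-1640 with 10% serum. For 3 of them (exposed) human MM.1S myeloma cells sat on the far side of a membrane with 0.4 µm pores during those 72 h, and for the other 2 (control) no myeloma cells were added. The labels call them replicates and do not state separate cultures, so a p-value here reflects how these samples vary, possibly for technical reasons only. Array medians ran from 4.80 to 4.88 on the log2 scale. Of 7 measured adipocyte markers all 7 were above the olfactory receptor range defined in the next paragraph on every array. Their mean levels ran from 6.24 to 12.4. Of 4 preadipocyte and fibroblast markers Dlk1 (mean 10.4), Thy1 (9.30) and Col1a1 (8.55) were above it on every array too. How much RNA came from undifferentiated cells was not tested. The endothelial markers Pecam1, Cdh5 and Kdr had mean levels from 2.33 to 3.10. Of 6 B and plasma cell markers 2 (Sdc1 and Xbp1) were above that range, as was 1 of 3 macrophage markers (Ptprc), and 0 genes of these lists were called.

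The table has no detection calls, so a reference for silent genes was taken from the data. Mean levels of 1091 probe sets of olfactory receptor genes, which fat cells are taken not to express, had a median of 2.55 and a 95th percentile of 4.03. A Hox gene was counted as above this range when all 5 arrays read more than 4.03. By this measure 15 of 33 Hox genes (45.5%) were above the range, against 55.8% of all probe sets. A probe set's level also depends on its probes, so levels of different genes are given by range and do not rank their RNA amounts.

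Of the 15 Hox genes above the olfactory receptor range, 12 were of anterior or central and 3 of posterior number. Of 6 anterior genes (paralogue numbers 1 to 3) 4 were above it, of 12 central genes (4 to 8) 8 were, and of 15 posterior genes (9 to 13) 3 were. These are counts of genes, which are not replicates, and no test was made on them. With the median of all probe sets (4.81) as the limit, 8 of the 33 genes were above it, 2 anterior, 5 central and 1 posterior. The 95th percentile of vomeronasal receptor genes, another reference, was 3.28. With that as the limit 20 genes were above it, the same 15 and Hoxa10, Hoxa11, Hoxa13, Hoxd10 and Hoxd12, all posterior. The size of the contrast between classes thus depended on the limit. In Hoxa all 5 measured genes up to Hoxa6 were above the olfactory receptor range and none of the 3 from Hoxa10 on. Hoxa7 and Hoxa9 were not among the measured genes, and with the vomeronasal limit those 3 were above it too. In Hoxb 4 of 9 genes were above the olfactory receptor range, in Hoxc 4 of 9, and in Hoxd 2 of 7.

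**Figure D1:**
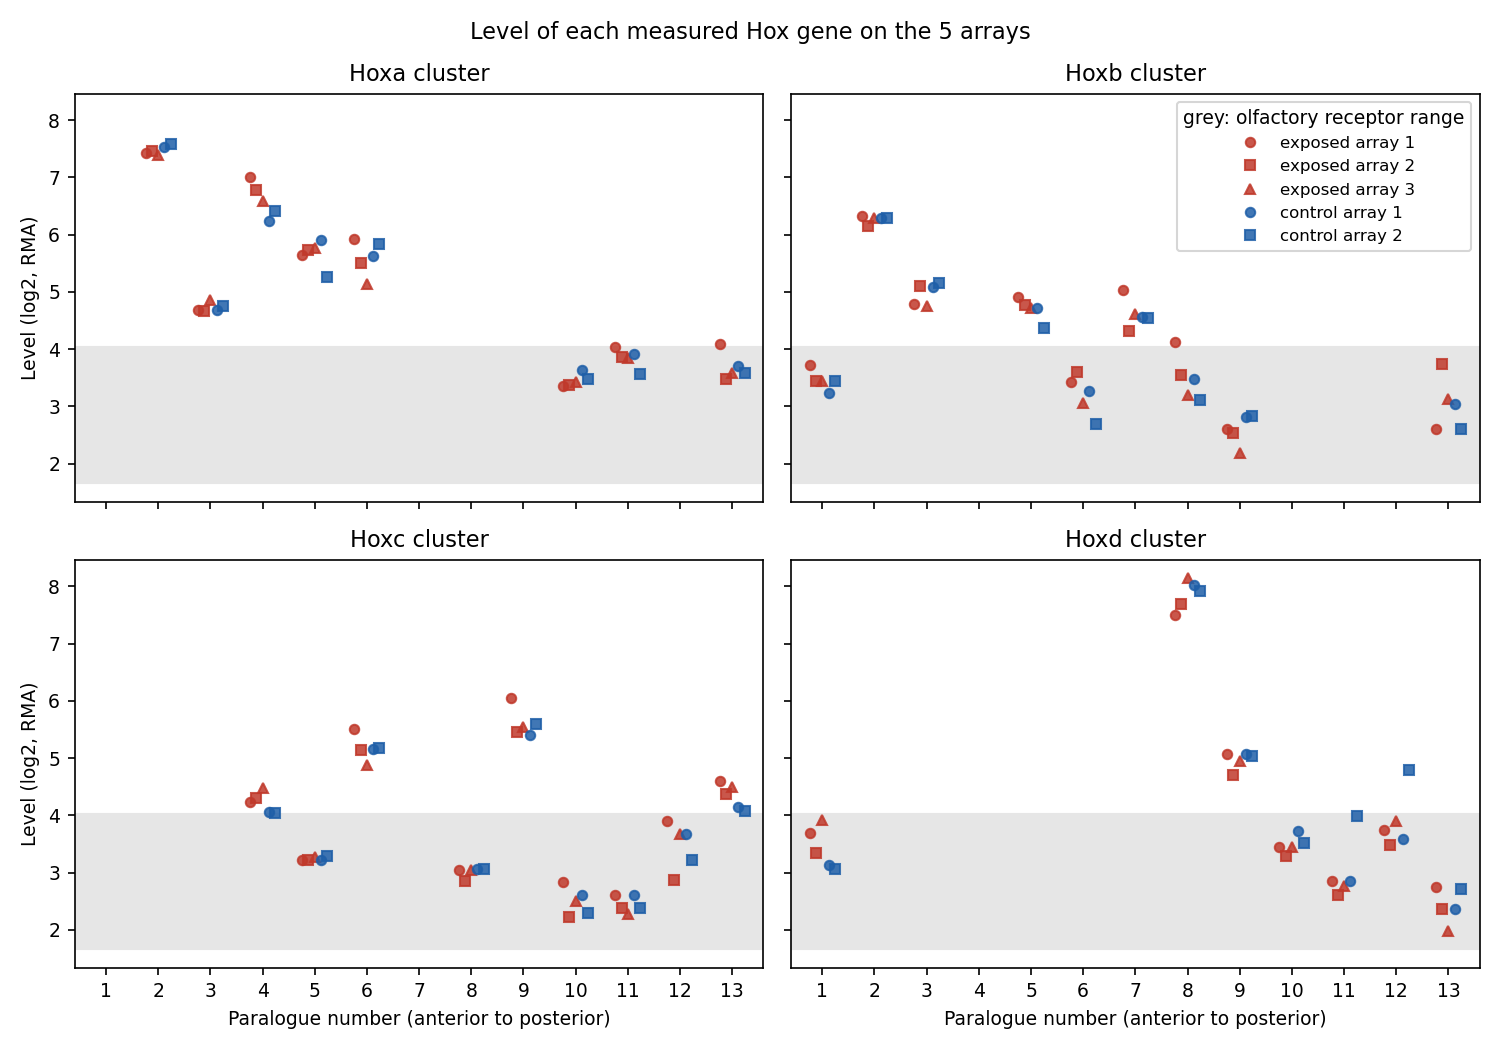
Log2 level of each of the 33 measured Hox genes (vertical axis) by paralogue number (horizontal axis) in the 4 clusters, 1 point per array, red for the 3 exposed and blue for the 2 control arrays. The grey band runs from the lowest olfactory receptor mean (1.66) to their 95th percentile (4.03): most points at number 10 and above lie inside it, with Hoxc13 above it on all 5 arrays and Hoxd12 above it on control array 2.

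Among the anterior genes, Hoxa2, a selector of the second pharyngeal arch and hindbrain, read 7.42, 7.46 and 7.39 on exposed arrays 1 to 3 and 7.53 and 7.58 on control arrays 1 and 2. Its paralogue Hoxb2, which acts in the hindbrain, read 6.32, 6.16 and 6.29 on exposed and 6.29 and 6.29 on control arrays. Both genes of number 2 were thus above the range with a spread of under 0.2 between the lowest and highest array (0.19 for Hoxa2 and 0.17 for Hoxb2). Hoxa3, needed for thymus and parathyroid formation, read 4.68, 4.66 and 4.86 on exposed and 4.68 and 4.75 on control arrays, and Hoxb3 had a mean of 4.98. The number 1 genes Hoxb1, which specifies a hindbrain segment, and Hoxd1, which acts in pain-sensing neurons, had means of 3.46 and 3.43, inside the range.

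Among the central genes, Hoxd8 had the highest level read from any Hox probe set, with 7.50, 7.69 and 8.14 on exposed and 8.02 and 7.91 on control arrays. Its mean of 7.85 lay at the 85.5th percentile of all probe sets. Its number 8 paralogues were inside the range, with means of 3.49 for Hoxb8, known from blood progenitors, and 3.01 for Hoxc8. Hoxa4, which shapes neck vertebrae, had a mean of 6.61, and Hoxa5, which acts in lung and neck and is expressed in adipose tissue, read 5.64, 5.74 and 5.77 on exposed and 5.90 and 5.26 on control arrays. Hoxa6 read 5.92, 5.51 and 5.14 on exposed and 5.62 and 5.84 on control arrays, so its lowest and highest values were both on exposed arrays. The same held for Hoxc6, which read 5.50, 5.14 and 4.89 on exposed and 5.16 and 5.17 on control arrays, and for Hoxb7, which read 5.03, 4.32 and 4.61 against 4.56 and 4.55. Hoxb5 (mean 4.70) and Hoxc4 (4.22) were also above the range, while Hoxb6 (3.21) and Hoxc5 (3.25) were not.

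Among the posterior genes, 3 of 15 were above the range. Hoxc9, a gene of the thoracic region often used as a marker of white fat, read 6.04, 5.46 and 5.55 on exposed and 5.40 and 5.59 on control arrays. Hoxd9, which acts in the forelimb and lumbar region, read 5.08, 4.70 and 4.94 on exposed and 5.07 and 5.04 on control arrays. The third paralogue of number 9, Hoxb9, was inside the range with a mean of 2.59. Hoxc13, a regulator of hair keratin genes, had a mean of 4.33 and was the only gene of number 10 or higher above the range on every array, and its lowest array read 4.07, close to the limit of 4.03. Genes of numbers 10 to 12 had means from 2.45 (Hoxc11) to 3.90 (Hoxd12), and the other number 13 genes, which act in digits and the lower urogenital tract, had means of 3.68 (Hoxa13), 3.02 (Hoxb13) and 2.43 (Hoxd13).

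The limit divided a few genes narrowly. Hoxc4 was just inside the group above it, with a lowest value of 4.032 against a limit of 4.029. Hoxa11, Hoxa13, Hoxb8 and Hoxd12 were over the limit on 1 array each and so were not counted. The RefSeq span of Hoxa3 overlaps those of Hoxa4, Hoxa5 and Hoxa6, and the span of Hoxd10 overlaps that of Hoxd11. Whether shared exons carry signal between these probe sets was not tested.

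Upstream sequence is shown for 2 genes above the range with few CG dinucleotides and for 3 promoters with many, 1 of a gene above the range and 2 of number 13 genes not above it. Each is the 250 bases before the start of the gene in RefSeq (GRCm38.p6), written 5′ to 3′ on the gene's strand, with each CG dinucleotide, the site of DNA methylation, in capitals. Hoxd8 is at chr2:74704365-74704614 (plus strand), Hoxa2 at chr6:52164832-52165081 (minus), Hoxa5 at chr6:52204588-52204837 (minus), Hoxa13 at chr6:52260881-52261130 (minus) and Hoxd13 at chr2:74667975-74668224 (plus).
Hoxd8: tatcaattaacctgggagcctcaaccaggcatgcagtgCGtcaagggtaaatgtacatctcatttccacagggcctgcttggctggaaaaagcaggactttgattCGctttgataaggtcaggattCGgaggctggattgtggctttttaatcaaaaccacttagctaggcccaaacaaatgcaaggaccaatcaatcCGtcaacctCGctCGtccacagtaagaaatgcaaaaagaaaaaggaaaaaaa
Hoxa2: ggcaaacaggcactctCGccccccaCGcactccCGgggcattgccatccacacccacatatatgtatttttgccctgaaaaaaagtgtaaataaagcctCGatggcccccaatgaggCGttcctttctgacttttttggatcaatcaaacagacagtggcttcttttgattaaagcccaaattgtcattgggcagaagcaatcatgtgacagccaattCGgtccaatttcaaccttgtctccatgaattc
Hoxa5: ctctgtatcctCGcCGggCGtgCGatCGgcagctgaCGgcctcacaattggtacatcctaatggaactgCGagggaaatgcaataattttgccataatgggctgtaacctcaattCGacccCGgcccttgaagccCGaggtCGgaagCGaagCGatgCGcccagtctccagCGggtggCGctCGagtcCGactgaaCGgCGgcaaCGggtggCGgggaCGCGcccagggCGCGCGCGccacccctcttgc
Hoxa13: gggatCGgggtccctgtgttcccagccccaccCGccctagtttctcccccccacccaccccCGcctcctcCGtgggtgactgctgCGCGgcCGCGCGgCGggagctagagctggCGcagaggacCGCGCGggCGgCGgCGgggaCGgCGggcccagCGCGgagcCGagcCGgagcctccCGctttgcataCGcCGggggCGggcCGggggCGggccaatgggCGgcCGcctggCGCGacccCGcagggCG
Hoxd13: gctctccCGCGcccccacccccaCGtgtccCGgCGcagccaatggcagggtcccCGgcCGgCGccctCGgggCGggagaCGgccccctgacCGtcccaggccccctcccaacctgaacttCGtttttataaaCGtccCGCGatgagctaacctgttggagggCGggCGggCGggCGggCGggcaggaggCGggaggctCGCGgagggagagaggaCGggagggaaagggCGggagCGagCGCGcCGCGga
The promoters of Hoxd8 and Hoxa2 held 6 CG dinucleotides each, which equals the median of 32851 promoters in the table. That of Hoxa5 held 28, that of Hoxa13 held 35 and that of Hoxd13 held 31. Sequence was at hand for 17 of the 33 genes, with 19 promoters. The 7 promoters of genes above the range held from 6 to 28 (median 13) and the 12 others from 2 to 35 (median 16.5), so the number of CG dinucleotides overlapped between them.

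These promoters were also searched for letters bound by Hox partners. TGATNNAT, bound by Pbx and Hox proteins together, was searched on both strands and occurred in 4 of the 19 promoters and in 7.68% of all promoters. TGACAG, bound by Meis proteins, was searched likewise and occurred in 2 of 19 and in 15.9% of all. The only 1 of the 5 printed promoters with either was that of Hoxa2, which held TGACAG from 44 bases before the start and TGATNNAT on the opposite strand (read as ATCAATCA on the gene's strand) from 111 bases before it. The search patterns do not overlap each other at these places, and a match describes letters only.

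Exposed and control arrays were compared to ask whether myeloma cells sharing the medium go with another Hox pattern in the adipocytes. No Hox gene passed the test. Of the 33 genes 18 were higher and 15 lower in mean on exposed arrays, and their median difference was 0.021 (exposed minus control, log2), where 49.9% of all probe sets were higher and their median was -0.00040. limma called 0 of 33 Hox genes at an adjusted p under 0.05, and 0% of all probe sets. The lowest adjusted p of a Hox gene was 0.93. At an unadjusted p under 0.05 there were 3 Hox genes, all 3 higher, where 3.49% of all probe sets were below 0.05 in either direction, 1.82% on the higher and 1.68% on the lower side. This count of 3 was 1 without exposed array 1 and 0 without control array 2. With at least a 2-fold difference as well, 0 Hox genes passed, against 0.018% of all probe sets. The 95% interval excluded a 2-fold difference in either direction for 28 of 33 genes, against 92.9% of all probe sets, and its half-width ran from 0.29 to 0.86. The 28 were all 15 genes above the olfactory receptor range and 13 of the 18 not above it. RMA compresses differences between dim signals, so for those 13 the interval bounds array values and not the RNA change. The same caution applies to dim genes above the range, such as Hoxc4 and Hoxc13. Their lowest arrays were 0.003 and 0.042 over its upper limit.

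**Figure D2:**
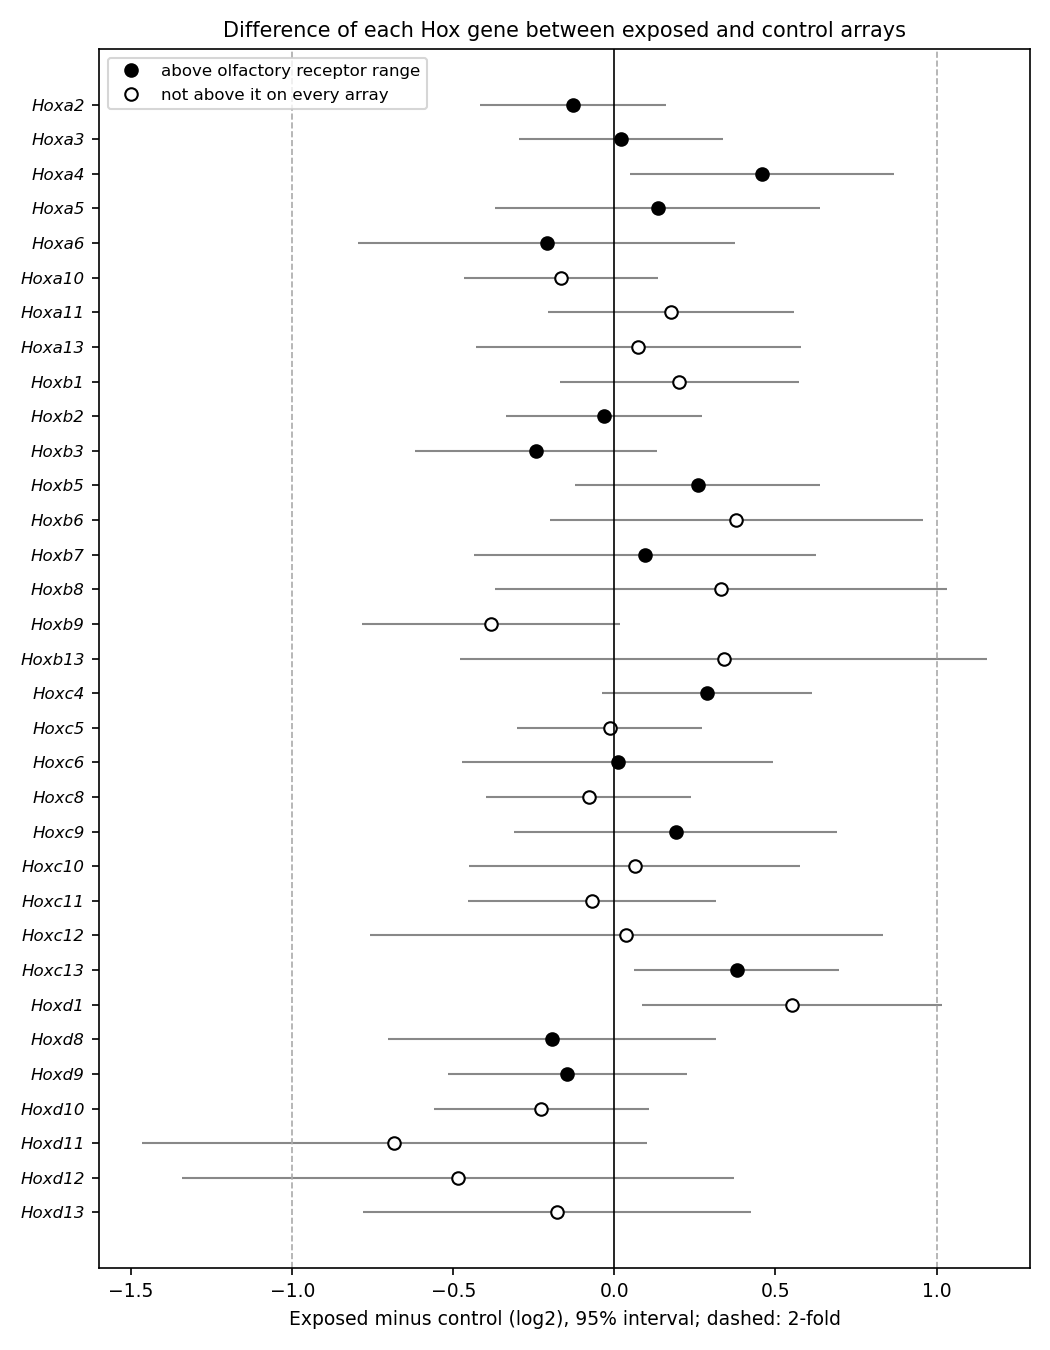
Difference between exposed and control means (log2, horizontal axis) with limma's 95% interval for each of the 33 Hox genes, filled for the 15 genes above the olfactory receptor range and open for the other 18. The intervals of 28 genes lie within the dashed lines at a 2-fold difference, and those of Hoxd11 and Hoxd12 reach farthest to the lower side.

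By level, the genes above the range were 9 higher and 6 lower (median 0.021) and the others 9 higher and 9 lower (median 0.011). By cluster, medians were 0.048 for Hoxa, 0.20 for Hoxb, 0.037 for Hoxc and -0.19 for Hoxd, where 6 of 7 genes were lower. With single arrays left out, the Hoxb median ranged from 0.078 (without exposed array 1) to 0.25 and the Hoxd median from -0.25 to -0.12 (without control array 2). The Hoxa and Hoxc medians were -0.031 and -0.094 without exposed array 1, below 0. By class they were -0.0052 for anterior, 0.11 for central and -0.070 for posterior genes. The 5 posterior Hoxd genes were all lower in mean on exposed arrays with all arrays in, but 4 of 5 were without control array 2, where Hoxd12 differed by 0.12 and Hoxd13 by -0.00014, and 4 of 5 without exposed array 3. The 4 central Hoxb genes were all higher, but 3 of 4 were without exposed array 1, where Hoxb7 differed by -0.093, and without control array 2 their median fell from 0.29 to 0.090. Both groups were picked after their values were seen, and none of their genes passed singly. Of the posterior Hoxd genes only Hoxd9 was above the olfactory receptor range, and of the central Hoxb genes only Hoxb5 and Hoxb7 were.

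The groups did not overlap for 10 of the 33 genes, 5 higher and 5 lower, where 17.3% of all probe sets did not overlap, 8.5% higher and 8.84% lower. Hoxa4 read 7.01, 6.78 and 6.58 on exposed and 6.24 and 6.42 on control arrays. Every exposed array was thus above both control arrays, and the difference was 0.46 (95% interval 0.049 to 0.87, limma adjusted p 0.93). Hoxd1 read 3.70, 3.34 and 3.92 on exposed and 3.13 and 3.07 on control arrays, a difference of 0.55 (0.086 to 1.02) between values that all lay inside the olfactory receptor range. Hoxc13 read 4.60, 4.37 and 4.49 on exposed and 4.14 and 4.07 on control arrays, a difference of 0.38 (0.061 to 0.70). Those were the 3 genes at an unadjusted p under 0.05, and the adjusted p of each was 0.93. At paralogue number 4 both measured genes were separated upward, since Hoxc4 read 4.23, 4.29 and 4.48 against 4.06 and 4.03, a difference of 0.29 (-0.038 to 0.61). Hoxb5, another central gene, read 4.92, 4.78 and 4.72 against 4.72 and 4.37, so exposed array 3 and control array 1 met, and its difference of 0.26 was 0.083 without control array 2.

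On the lower side, Hoxb9 read 2.61, 2.53 and 2.19 on exposed and 2.81 and 2.83 on control arrays, a difference of -0.38 (-0.78 to 0.017) inside the olfactory receptor range. Hoxd10, which patterns the hindlimb, read 3.45, 3.29 and 3.45 against 3.73 and 3.52, a difference of -0.23 (-0.56 to 0.11) that was -0.12 without control array 1. Exposed arrays were below both control arrays for both genes. Hoxb3 read 4.78, 5.10 and 4.75 against 5.09 and 5.15, so its groups overlapped through exposed array 2. Hoxa2 was separated downward by -0.13 (-0.42 to 0.16), Hoxa10 by -0.17 and Hoxc8 by -0.080, and Hoxb1 upward by 0.20.

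**Figure D3:**
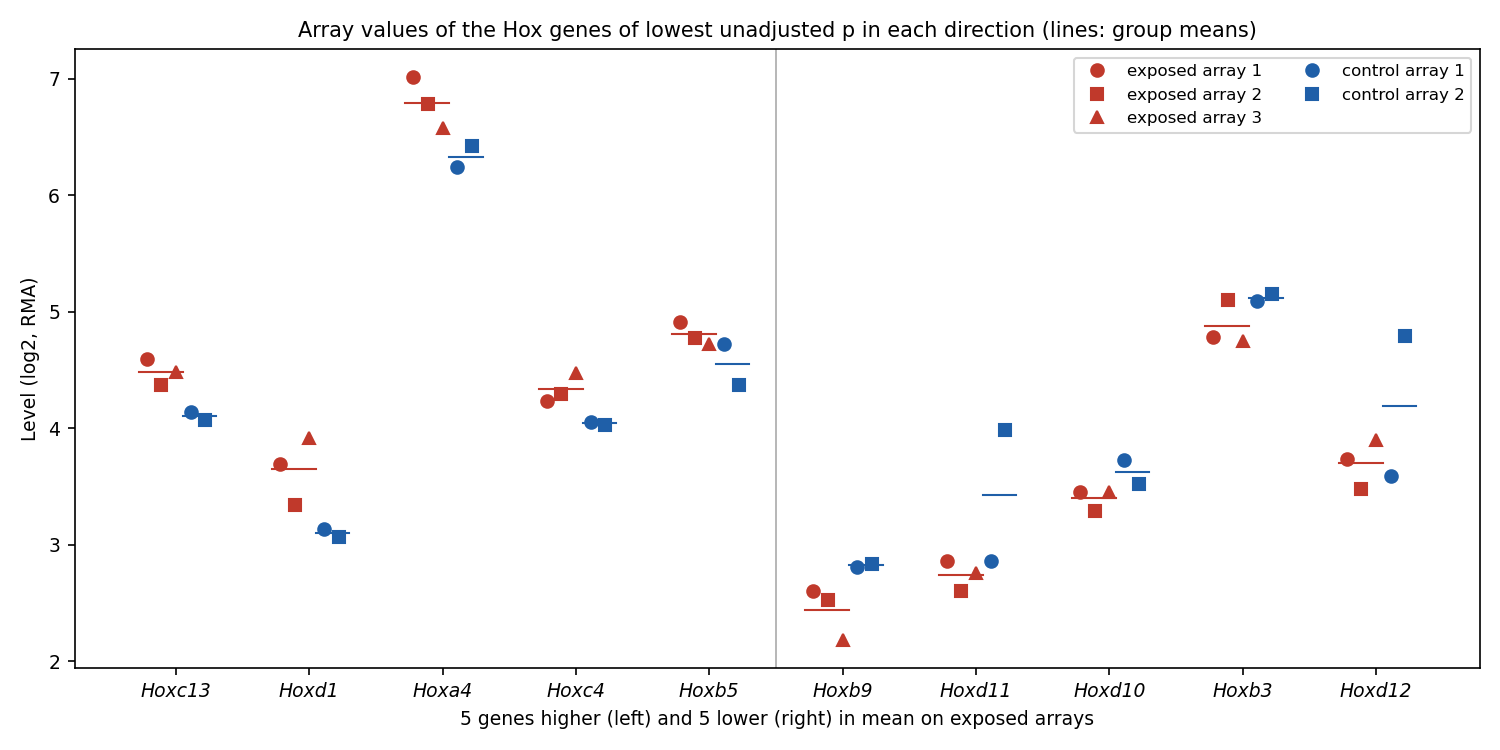
Log2 values on each array (vertical axis) of the 5 Hox genes per direction with the lowest unadjusted p, in red for exposed and blue for control arrays, with short lines at the group means. Exposed and control points are apart for Hoxc13, Hoxd1, Hoxa4, Hoxc4, Hoxb9 and Hoxd10, while in Hoxd11 and Hoxd12 the raised control mean comes from control array 2.

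The neighbours Hoxd11 and Hoxd12, both limb genes, each stood out on 1 array only, where Hoxd11 was still inside the olfactory receptor range. Hoxd11 read 2.86, 2.60 and 2.76 on exposed arrays, 2.86 on control array 1 and 3.99 on control array 2. Hoxd12 read 3.74, 3.48 and 3.90 on exposed arrays, 3.59 on control array 1 and 4.80 on control array 2. Control array 2 thus exceeded the next highest array by 1.13 for Hoxd11 and by 0.89 for Hoxd12, and exposed arrays met control array 1 in both. A gap of at least 0.8 above the other arrays, a limit just under the gap of Hoxd12, occurred on control array 2 at 65 of all 22206 probe sets (0.293%). The median level of these 65 was 2.82, inside the olfactory receptor range. Without control array 2 the difference was -0.12 for Hoxd11 and 0.12 for Hoxd12, against -0.68 and -0.49 with all arrays, and with 1 control array left its spread is assumed to be that of the exposed arrays. The flanking Hoxd10 and Hoxd13 read 3.52 and 2.72 on control array 2. Evx1, the homeobox gene beside Hoxa13, read 5.01 there, where the other arrays ranged from 4.05 to 4.49, and Evx2, beside Hoxd13, read 4.09.

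Hox values also differed between exposed arrays. Exposed array 1 was the highest of the 5 arrays for 17 of 33 Hox genes (51.5%) and for 22.3% of all probe sets. It was the lowest for 2 (6.06%), against 23.8% of all probe sets. Exposed array 2 was the lowest for 11 (33.3%), against 16.1% of all probe sets. The median deviation of the 33 genes from their own means was 0.16 on exposed array 1, -0.071 and -0.013 on exposed arrays 2 and 3, and 0.016 and -0.020 on control arrays 1 and 2. On exposed array 1 this median was -0.0078 for all probe sets. It was 0.18 for the list of 11 Evx, ParaHox, Mnx1 and Gbx genes described below. For the TALE, Polycomb, trithorax, retinoic acid and mesenchyme lists it ran from -0.12 to 0.046. Those lists had median levels from 4.92 to 7.81, against 3.85 for the Hox genes and 3.87 for those 11. For marker lists of low median level it was -0.17 (B and plasma cell), 0.046 (macrophage) and -0.058 (endothelium). Whether this goes with level was not tested. Exposed array 1 also had the highest median level of all probe sets (4.88). Without exposed array 1 the median Hox difference was -0.093.

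**Figure D4:**
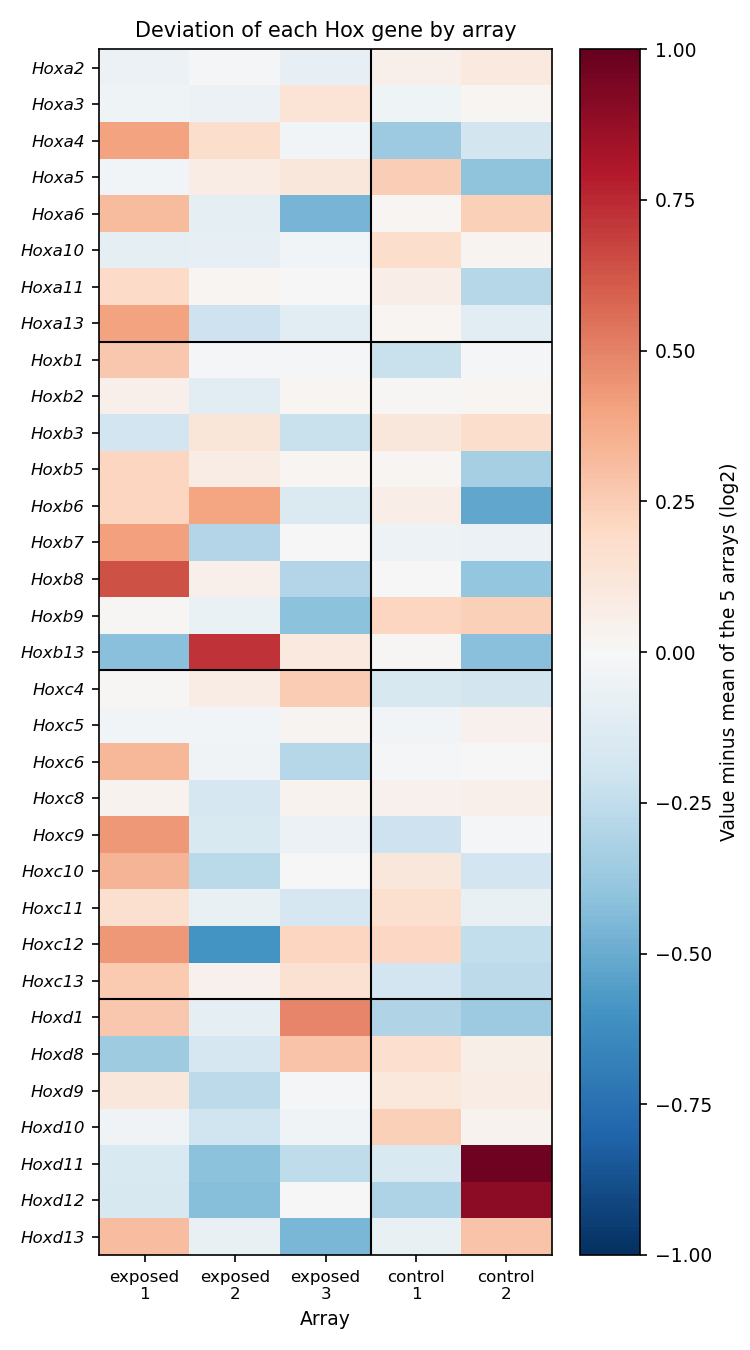
Deviation of each Hox gene (rows, by cluster and number) on each array (columns) from that gene's mean over the 5 arrays, on the log2 scale, red above and blue below. Exposed array 1 is above the mean for most genes of Hoxb and Hoxc, and the darkest cells are Hoxd11 and Hoxd12 on control array 2.

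Hox proteins bind DNA together with homeodomain cofactors of the TALE class, the Pbx, Meis and Pknox proteins. Of 10 measured genes of a TALE list that also holds the Tgif repressors, 9 were above the olfactory receptor range, 9 were lower and 1 higher in mean on exposed arrays, and 0 passed over all genes (median -0.19). Meis2, a cofactor of Hox and Pbx proteins, read 7.62, 7.80 and 7.33 on exposed and 8.05 and 8.09 on control arrays, a difference of -0.49 (-0.91 to -0.076, limma adjusted p 0.93). Pknox2 read 4.83, 5.34 and 4.89 against 5.34 and 5.65. Meis1, named after its values were seen, read 6.16, 6.11 and 5.62 against 6.57 and 6.29. Exposed arrays were below both control arrays for Meis1 and Meis2, and for Pknox2 the groups overlapped through exposed array 2. Meis3, also named after its values were seen, read 6.54, 6.16 and 6.16 against 6.58 and 6.41, so its groups overlapped through exposed array 1. In all, 3 of the 10 genes (Meis1, Meis2 and Tgif2) lay below both control arrays on every exposed array, where 8.84% of all probe sets did. The 1 gene that was higher was Pbx3, by 0.30.

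Regulators that keep Hox genes silent or active were above the range with 1 exception, and the medians of both lists lay within 0.1 of 0. In the Polycomb list 17 of 18 measured genes were above it, 8 were higher and 10 lower (median -0.0079). The difference was -0.37 for Mtf2, which brings a silencing complex to CpG-rich DNA, and 0.22 for Pcgf2. Mtf2 read 7.87, 7.83 and 7.41 on exposed and 8.09 and 8.05 on control arrays, and was the 1 gene of that list below both control arrays on every exposed array. In the list of trithorax genes and demethylases, which oppose Polycomb, all 9 were above it, 3 higher and 6 lower (median -0.087), with Ash2l at -0.20 and Men1 at 0.19. Ash2l and Dpy30 (-0.087, named after its values were seen), both parts of histone methylating complexes, were below both control arrays on every exposed array. That makes 2 of 9 genes here and 1 of 18 in the Polycomb list, where 8.84% of all probe sets were. In both lists 0 genes passed.

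Retinoic acid switches on Hox genes from the anterior end of a cluster in embryos. Of 16 measured genes of its pathway 11 were above the range, 7 were higher and 9 lower (median -0.025) and 0 passed. Aldh1a2, which makes retinoic acid, differed by 0.48 at array levels from 2.23 to 3.10, and the receptor gene Rxrb by -0.26. A further list held 11 measured homeobox genes: Evx1 and Evx2 beside Hox clusters, ParaHox genes, and the related Mnx1, Gbx1 and Gbx2. Of these 11, 2 (Evx1 and Gbx1) were above the range, 7 were higher and 4 lower (median 0.062) and 0 passed. Cdx1 differed by 0.38 and Gsx2 by 0.43. From a list of Hox cluster noncoding RNAs only Hoxa11os was matched by its own symbol, with a mean of 3.37 and a difference of 0.14. Hoxd3os1, a noncoding gene of the Hoxd cluster named after its values were seen, read 7.57, 7.67 and 7.80 on exposed and 7.56 and 7.54 on control arrays.

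Other factors that carry position in mesenchyme were mixed. Of 26 measured genes 16 were above the range, 16 were higher and 10 lower (median 0.053) and 0 passed. Lhx8, a homeobox gene of the jaw and forebrain, read 5.41, 5.20 and 5.56 on exposed and 5.11 and 4.71 on control arrays, a difference of 0.48 (0.035 to 0.92, limma adjusted p 0.93). Hand2, a factor of heart and limb, read 5.69, 5.54 and 5.24 against 4.94 and 5.18, a difference of 0.43. Exposed arrays were above both control arrays for these 2 genes of the list, where 8.5% of all probe sets were. They were below both control arrays for 4 others, named after their values were seen, where 8.84% of all probe sets were. These were the limb and skeletal homeobox genes Shox2 (-0.32), Prrx1 (-0.22) and Prrx2 (-0.20) and the T-box gene Tbx18 (-0.19).

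**Figure D5:**
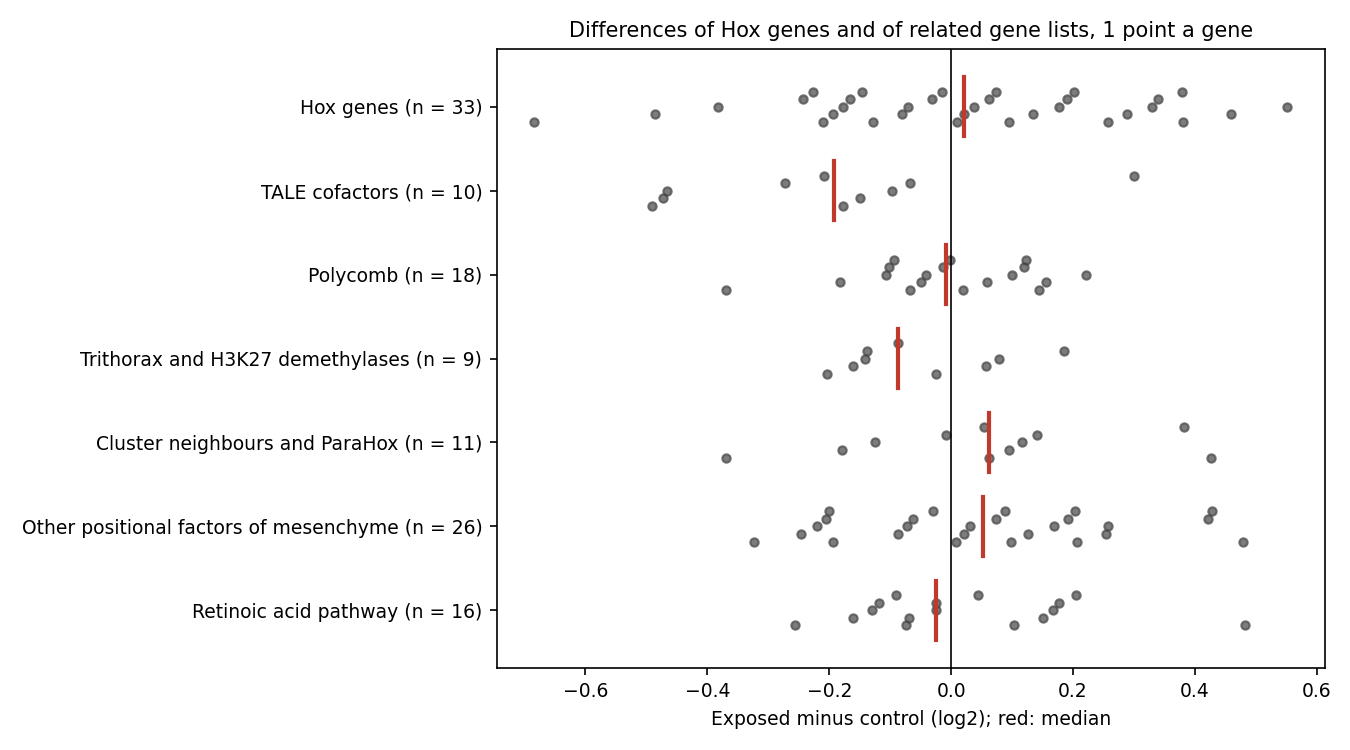
Difference between exposed and control means (log2, horizontal axis) for the 33 Hox genes and 6 related lists, 1 point a gene and a red line at each median. The TALE cofactor list has 9 of 10 genes below 0 and a median of -0.19, and the other medians lie between -0.087 and 0.062.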

How the data were processed

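RNA of 5 samples (50 ng each) was hybridised to Clariom S mouse arrays. The deposited log2 values were made by the authors with Partek and RMA, per the submitters' processing notes. RMA corrects background, quantile-normalizes the arrays and summarises each probe set, and it compresses differences between dim signals. Versions and the annotation build are not given in the sources used here. Of the probe sets 19572 had 1 gene symbol in the platform annotation, 0 had several and 2634 had none. At 27.2% of probe sets at least 2 arrays held the same value. The small number of arrays limits precision.

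Exposed minus control was estimated by limma 3.58.1 under R 4.3.3, with lmFit, eBayes and a model holding group alone. All 22206 probe sets entered unfiltered, tests were two-sided, and Benjamini-Hochberg adjustment covered the whole table. Residual degrees of freedom were 3 and the prior added 3.17. The fit was tested on simulated data. Intervals are limma's 95% intervals for exposed minus control.

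All Hox genes are accounted for. Array values are given for genes above the olfactory receptor range and for the 5 genes per direction of lowest unadjusted p. The 2 genes of lowest unadjusted p are named from each related list. The 7 lists hold 108 genes, 91 of them measured. The members, lists and tests were chosen with earlier results of these data known. Alternatives covered a level filter, moderation, array weights, normalization, the replicate number as a block, the call rule, the reference range and each array left out.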

Additional observations from a re-analysis of the deposited data

How the results depend on the processing

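Under every alternative 0 Hox genes and 0 of all probe sets were called at an adjusted p under 0.05. With an unadjusted p under 0.05 and at least a 2-fold difference as the rule, 4 probe sets were called, none of them a Hox gene. The count of 3 Hox genes at an unadjusted p under 0.05 was 1 when only the 10 Hox genes not below the table's median level entered the fit, a smaller set. It ranged from 0 to 4 when single arrays were left out. The median Hox difference was -0.080 with that level filter and -0.093 to 0.047 with 1 array left out. The count of 15 genes above the reference range was 8 with the median of all probe sets as the limit. All 8 of them were among the 15. With 1 array left out the count was 14 to 15, and with the mean over the 5 arrays it was 15. It was 11 with the 99th percentile of the olfactory receptor means and 20 with the vomeronasal reference. The genes that the vomeronasal reference added were all posterior. Of the 10 Hox genes named by unadjusted p, 9 kept their sign in every fit. They were picked by p from these same values. A gene whose groups do not overlap cannot change sign when 1 array is left out, so the kept signs are no separate support. Hoxd12 ranged from -1.09 to 0.12 with single arrays left out, the latter without control array 2. The counts and medians of gene groups with single arrays left out were added after seeing the data. No Hox gene had more than 1 probe set, so averaging probe sets changed nothing.

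Replicate numbers do not pair the samples by the labels. Deviations from the group means of same-numbered arrays correlated at -0.014 for number 1 and -0.032 for number 2. With the replicate block 0 Hox genes were called and the median Hox difference was 0.013. It changed no call, and it leaves exposed array 3 without a partner.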
